A study of Mus musculus with 30 samples.

Results

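Type I interferon-stimulated antiviral genes were followed in astrocytes after stroke and after systemic endotoxin. The set holds 38 named genes: 21 antiviral effectors, 4 nucleic acid sensors, 6 regulators of the interferon response and 7 genes of the PARP and TRIM families. Interferon-induced GTPases other than Mx1 and Mx2 were left out of it. The genes were listed by name, each read from its brightest probe set with 1 gene symbol. On the array 36 of the 38 had such a probe set, Isg15 and Ifi44 being the exceptions. Sp100 stayed under the filter on dim genes (a log2 intensity of at least 5 on at least 3 arrays), so 35 members were tested among 15726 genes. Membership did not use any measured value, but the set was chosen with earlier results of these data known.

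Type I interferons act on the receptor pair Ifnar1 and Ifnar2, whose kinases Jak1 and Tyk2 activate Stat2. Complexes of Stat2 and Irf9 bind the interferon-stimulated response element in the promoters of antiviral genes. The products block viral entry, translation and release, or sense foreign nucleic acid, and Usp18 feeds back on the receptor to end the signal. Astrocytes carry the receptor and several of the sensors, and antiviral genes are also known to be induced in the brain by injury and endotoxin without infection.

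All cells came from young adult male mice that carried the Tg(Aldh1l1-eGFP) OFC789Gsat transgene on a Swiss Webster background, in which the Aldh1l1 promoter drives a green fluorescent reporter. The brains were dissociated with papain and the fluorescent cells were sorted. Stroke was middle cerebral artery occlusion (MCAO) for 1 h followed by reperfusion, and its control was sham surgery. Cells were taken at 1 day (5 MCAO and 4 sham arrays), 3 days (3 and 3) and 7 days (3 and 3). Endotoxin was lipopolysaccharide (LPS) at 5 mg/kg into the peritoneum, its control was saline, and cells were taken at 1 day (5 and 4 arrays). Each labelling started from about 20 ng of RNA and took a pair of amplification cycles. Values are log2 intensities from an expression array, given with SD over arrays, and log2 folds are given with the SE of the limma fit. Calls were made at an adjusted p under 0.05 (Benjamini-Hochberg, across the 15726 genes), and "rose" and "fell" are reserved for called genes.

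The sorted cells carried astrocyte markers at high levels. Averaged over 9 astrocyte markers, the log2 level was 12.82 to 13.54 on all arrays but LPS replicate 5. That array had 12.29, and a median intensity of 94 where the other 29 had 68 to 73. Microglial and macrophage markers averaged 5.48 to 7.02 over 14 genes, and the defining microglial genes Aif1 (4.46 to 5.43) and Itgam (3.81 to 4.39) were near the array's floor on all 30 arrays. Other genes of that list were not: Csf1r read 6.54 to 9.75, Cx3cr1 4.81 to 6.36 and Cd68 4.86 to 7.64. By their brightest value the arrays fell into a bright set of 16 (31338 to 35553) and a dim set of 14 (20222 to 26595), a division noticed in the data. All 1-day surgery arrays were bright and all 7-day arrays dim, whereas the 3-day, LPS and saline groups were split.

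Several arrays stood apart from their own group in these genes. Saline replicate 3 was the highest of the 4 saline arrays for 32 of 35 members (91.4%), against 15.5% of all genes tested. It lay more than 2-fold above the mean of the other 3 saline arrays in 20 members (57.1%), against 0.884% of all genes, with a median excess of 1.34 on the log2 scale. Lcn2, an acute-phase gene that reached 13.70 to 14.36 on the LPS arrays, was at 6.60 on this array and at 4.95 to 5.93 on the other saline arrays. Sham replicate 3 at 3 days was the highest of its group for 33 members (94.3%, against 49.7% of all genes), and its Lcn2 of 9.70 compared with 5.04 and 4.95 on the other sham arrays. Oligodendrocyte precursor markers averaged 9.79 over 8 genes on that array, against 7.58 and 7.64 on the other sham arrays and 8.52 to 9.20 after MCAO at 3 days. LPS replicate 1 was the highest of its group for 29 members (82.9%, against 12.7% of all genes). For 3-day MCAO replicate 2 this held for 30 members (85.7%, against 34.4% of all genes). Results on the members that rest on these 2 control arrays are therefore given with and without them. Both were picked for their high levels of the members, so leaving them out raises most of the members' folds by that choice. Without either, the control groups were tight: the mean over 36 members was 6.69 to 6.88 on the other 3 saline arrays and 6.81 and 6.88 on the other 2 sham arrays of 3 days, where the array left out had 8.24 and 7.85.

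**Figure D1:**
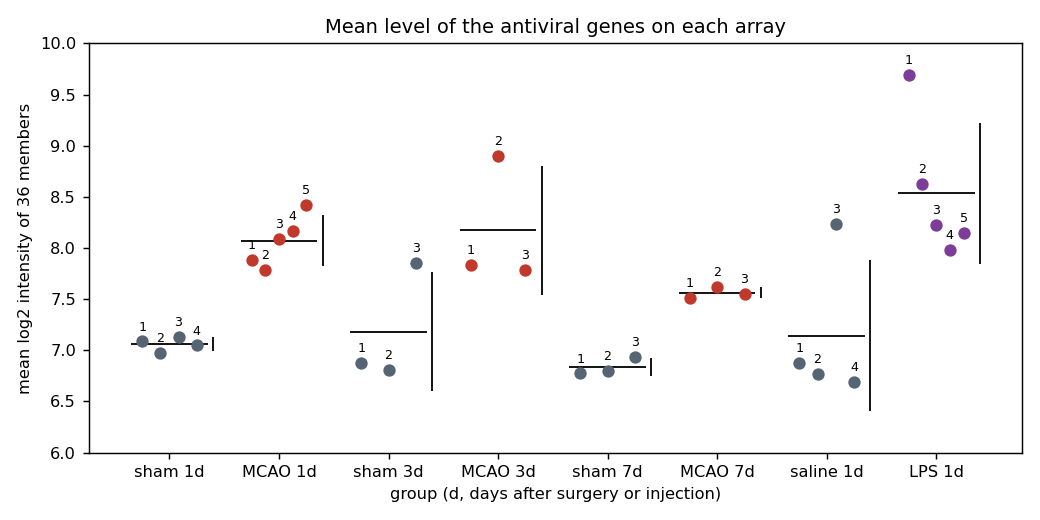
Mean log2 intensity of 36 members (vertical axis) on each of 30 arrays, grouped by treatment and day, with replicate numbers above the points, the group mean as a horizontal line and its SD as a vertical line. All MCAO arrays of 1 and 7 days lie above the sham arrays of their day, and saline replicate 3 (8.24) lies above the lowest LPS arrays (7.98, 8.15 and 8.23).

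Promoter sequences are shown for members that were called after LPS or stroke at 1 day, to give the reader the elements that interferon signalling is known to use. RefSeq (GRCm38.p6) gave a promoter for 27 of the 36 members, and the 250 bases before each start site were searched on both strands. The core of the interferon-stimulated response element, searched as GAAA, any 2 bases and GAAA, was present in 6 of 27 members (22.2%), against 3.46% of 27025 genes with a promoter in the table. These were Ifit1, Ifit3, Rsad2, Bst2, Stat2 and Trim30a. The gamma-activated site core TTCNNNGAA was also present in 6 members (22.2%), against 8.13% of genes. These were Ifit2, Ifi202b, Bst2, Eif2ak2, Irf1 and Irf8. In Bst2 the pair of response element cores overlap each other, and the core 130 bases before the start also overlaps the gamma-activated core. The stretches below run 5′ to 3′ on the strand of the gene, and capitals mark response element cores, which read as TTTC, 2 bases and TTTC where they lie on the opposite strand. They are of Ifit3 at chr19:34583352-34583471 (plus strand, cores 156 and 122 bases before the start), Rsad2 at chr12:26456508-26456627 (minus strand, 120 before), Bst2 at chr8:71537532-71537651 (minus strand, 130 and 124 before) and Stat2 at chr10:128270248-128270367 (plus strand, 222 before). Oasl2 at chr5:114896814-114896933 (plus strand) and Ifitm3 at chr7:141010745-141010864 (minus strand) are the called members with the largest LPS response among those with a promoter in the table that held neither core in the window.
Ifit3: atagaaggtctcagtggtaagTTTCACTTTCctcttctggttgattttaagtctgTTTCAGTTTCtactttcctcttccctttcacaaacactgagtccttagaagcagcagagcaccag
Rsad2: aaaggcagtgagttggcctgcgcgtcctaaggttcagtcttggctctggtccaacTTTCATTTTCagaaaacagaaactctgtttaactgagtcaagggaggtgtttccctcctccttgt
Bst2: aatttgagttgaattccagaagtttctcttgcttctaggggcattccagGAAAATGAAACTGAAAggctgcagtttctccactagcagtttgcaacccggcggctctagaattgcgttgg
Stat2: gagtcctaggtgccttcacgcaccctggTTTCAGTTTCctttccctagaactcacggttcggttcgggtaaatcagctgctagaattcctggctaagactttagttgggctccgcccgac
Oasl2: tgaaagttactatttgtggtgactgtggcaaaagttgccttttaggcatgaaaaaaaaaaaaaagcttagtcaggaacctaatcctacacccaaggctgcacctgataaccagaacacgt
Ifitm3: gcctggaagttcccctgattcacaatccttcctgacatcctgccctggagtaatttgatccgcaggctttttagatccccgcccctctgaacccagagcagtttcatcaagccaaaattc

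Whether stroke raises antiviral genes in astrocytes within a day was asked first. At 1 day after MCAO 8 of 35 members rose (22.9%), against 6.49% of all genes called higher, and 0 fell, against 6.17% of all genes. The 8 were the regulators Irf9 and Usp18, the effectors Ifi202b, Ifitm3, Oasl2 and Rsad2, and Parp14 and Trim25. The log2 fold was above 0 in 33 of 35 members and had a median of 0.80, against a median of -0.05 over all genes. In 22 members (62.9%) every MCAO array lay above every sham array, against 12.1% of all genes. At an unadjusted p under 0.05 there were 18 members, all higher, against 10.7% of all genes higher.

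Ifi202b, a DNA-binding protein of the interferon-inducible p200 family, had the largest response of the set. On the 4 sham arrays it read 4.70, 4.64, 7.04 and 4.76, and on the 5 MCAO arrays 13.71, 11.86, 10.29, 11.56 and 11.18. The groups did not overlap, and sham replicate 3 was the only sham array above 5. The rise was log2 6.43 ± 0.85 SE, or 86.4-fold (adjusted p = 8.64e-06). Its probe set carries the suffix that marks probes shared between transcripts, so signal from related p200 genes cannot be told apart. Ifi204, another p200 gene, rose by log2 1.81 ± 0.29 SE (adjusted p = 0.000111), from 3.52 to 5.33. It passed the filter only through MCAO arrays (6.64, 5.29 and 5.46 at 1 day and 5.39 at 3 days). The gene was thus tested because it was high after MCAO, and its call adds no support of its own.

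Among the regulators, Irf9, the DNA-binding partner that directs Stat2 to antiviral promoters, was the tightest. It read 7.48, 7.34, 7.76 and 7.14 on the sham arrays and 8.59, 8.46, 8.54, 8.68 and 8.69 on the MCAO arrays. The MCAO arrays lay close together (SD 0.09) and above all sham arrays, and the rise was 1.16 ± 0.25 SE (adjusted p = 0.00185). Usp18, which removes Isg15 from proteins and restrains the receptor, read 6.25, 4.91, 5.67 and 5.86 after sham surgery and 7.66, 7.23, 8.10, 8.18 and 8.88 after MCAO. These groups did not overlap either, and the rise was 2.34 ± 0.69 SE (adjusted p = 0.0232). Irf1 (0.73) and Irf7 (0.57) had MCAO arrays above all sham arrays but were not called. Stat2 (0.20) and Irf8 (-0.17) were not called, and their groups overlapped.

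Among the effectors, Ifitm3, a membrane protein that blocks fusion of enveloped viruses, went from 8.62, 8.32, 9.61 and 8.81 to 10.21, 10.87, 11.03, 11.63 and 11.50. The rise was 2.20 ± 0.54 SE (adjusted p = 0.00567), with no overlap. Oasl2, a member of the oligoadenylate synthetase family, went from 5.25, 4.81, 4.91 and 5.13 to 7.02, 6.78, 7.59, 7.58 and 8.70. Its rise was 2.51 ± 0.74 SE (adjusted p = 0.0223), and MCAO replicate 5 was the highest array. Rsad2 (viperin), which makes a chain-terminating nucleotide, was already bright after sham surgery at 9.59, 10.03, 9.29 and 9.78. It read 11.00, 11.13, 11.28, 10.71 and 11.54 after MCAO, a rise of 1.46 ± 0.47 SE (adjusted p = 0.0367) without overlap. Of the other 14 effectors tested, log2 folds ran from 1.40 for Ifit1 to -0.02 for Cmpk2, and 0 were called. Ifit1, which binds viral RNA caps, read 5.52, 5.04, 5.25 and 5.36 against 5.98, 6.30, 6.82, 6.73 and 7.64 (adjusted p = 0.105), with no overlap.

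Parp14, a mono-ADP-ribosyltransferase linked to interferon responses, read 6.41, 5.98, 6.29 and 6.04 against 7.29, 7.38, 7.72, 8.16 and 8.13. It rose by 1.56 ± 0.52 SE (adjusted p = 0.0479). This call held in only 7 of 30 fits that left out a single array, and in 10 of 15 other alternative fits. A dimmer probe set of Parp14, near the array's floor with a mean of 4.76, differed by -0.07. Trim25, the ubiquitin ligase that activates the RNA sensor RIG-I, was bright on all arrays, at 10.20, 10.22, 10.20 and 9.82 after sham surgery and 11.06, 10.79, 11.03, 11.33 and 11.28 after MCAO. It rose by 0.99 ± 0.28 SE (adjusted p = 0.0172), and neither gene's groups overlapped. Trim30a, a negative regulator of inflammatory signalling, differed by 1.69 ± 0.62 SE and was not called (adjusted p = 0.0745), although its sham arrays (5.67, 5.36, 5.93 and 5.76) lay below all MCAO arrays (7.41, 6.82, 7.48, 7.28 and 7.86). The 4 sensors were not called. Ifih1 (MDA5), a sensor of long viral RNA, had the largest difference among them, from 7.23, 6.69, 7.26 and 7.56 to 7.98, 8.06, 8.22, 8.54 and 9.37 (1.25 ± 0.55 SE, adjusted p = 0.155), again without overlap. Ddx58 (RIG-I) differed by 0.70, Dhx58 by 0.11 and Zbp1 by 0.00.

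The replicate numbers in the sample descriptions were tried as pairs of 1-day surgery arrays. The deviations of the 4 numbered pairs from their group means correlated at 0.16 to 0.50. Numbered pairs of 3 days gave 0.027 to 0.208 and those of 7 days 0.004 to 0.375, so pairing was not established. With the 1-day pairs as a block 3 members were called, against 4.45% of all genes higher, Ifi202b, Ifitm3 and Irf9, and the other 5 were lost. The fit on the 1-day surgery arrays alone called 25 members, against 14.6% of all genes higher, and array weights also gave 25, against 17% of all genes. Leaving out single arrays gave 4 (without sham replicate 2 or 4, or MCAO replicate 5) to 14 (without LPS replicate 1, which enters the shared variance). For these fits the shares of all genes are not given here. Cd68, a phagocyte marker, was the 1 microglial marker of 13 tested that rose at 1 day (log2 1.98 ± 0.26 SE, adjusted p = 9.14e-06), and the sum of the 14 microglial markers was 1629 to 3429 on MCAO and 1509 to 2776 on sham arrays. S100a8 and Il1r2, of 8 neutrophil and monocyte markers tested, rose by 0.87 each, and the endothelial gene Vwf and the smooth muscle gene Tagln rose too. Endothelial markers averaged 6.42 to 8.69 on MCAO and 6.61 to 8.20 on sham arrays. The part of other cells in the antiviral genes was not tested. In bulk samples a change in the share of cells and a change in RNA per cell cannot be told apart.

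**Figure D2:**
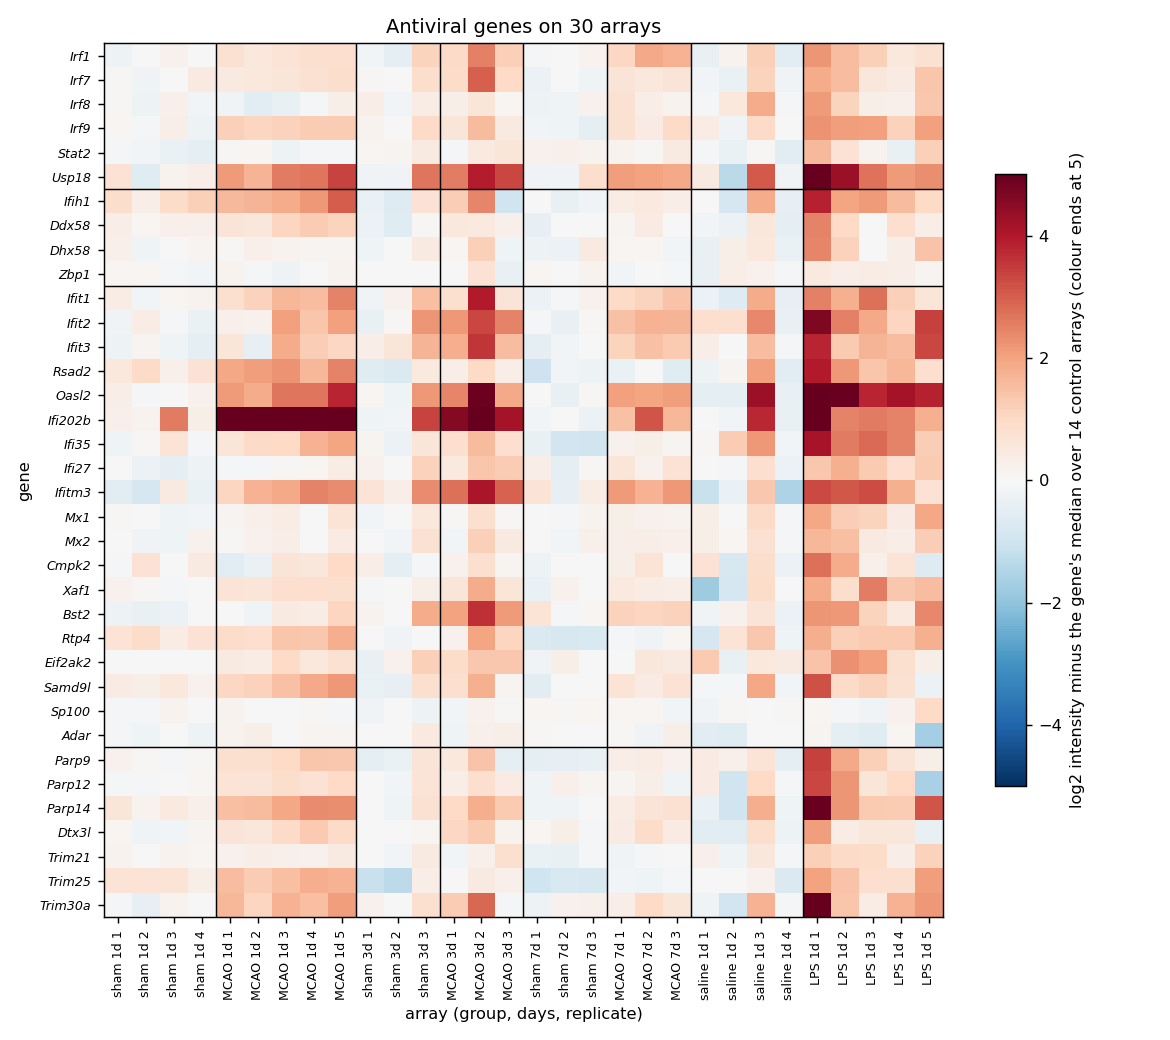
Log2 intensity of 36 members on 30 arrays, each gene as its difference from its own median over the 14 control arrays (red above, blue below, colour ending at 5), with genes ordered by role from regulators and sensors to effectors and the PARP and TRIM families. The LPS columns and the 1-day MCAO columns are red for many genes, and single control columns (saline replicate 3 and 3-day sham replicate 3) are red for many of them too.

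At 3 days the comparison depended on 1 sham array and on the weight given to each array. With all arrays 0 of 35 members were called, against 0.61% of all genes called higher, and 13 members had an unadjusted p under 0.05, all higher, against 5.56% of all genes higher. The log2 fold was above 0 in 34 members, with a median of 0.90 against 0.01 over all genes, and 10 members (28.6%) did not overlap between groups, against 5.74% of all genes. That sham array was picked for its high levels of the members, so leaving it out raises most of their folds by that choice. MCAO replicate 2, the highest of its group for 30 members, was kept. Without sham replicate 3, 7 members (20.0%) were called higher, against 1.82% of all genes, the median was 1.19, and 24 members (68.6%) did not overlap, against 16.6% of all genes. The 7 were Bst2, Ifi202b, Trim25, Irf1, Usp18, Ifitm3 and Ifit2. With every array kept, array weights called 19 members higher, against 7.19% of all genes.

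Ifi202b read 4.25 and 4.32 on sham replicates 1 and 2, 7.82 on sham replicate 3, and 9.06, 10.95 and 8.62 after MCAO. The difference was 4.08 ± 1.03 SE with all arrays (adjusted p = 0.0626) and 5.26 ± 1.06 SE without sham replicate 3 (adjusted p = 0.00541). Bst2 (tetherin), which holds budding virus at the cell surface, read 6.43, 6.29 and 8.12 after sham surgery and 8.26, 9.91 and 8.37 after MCAO. The third sham array lay just under the lowest MCAO array, and the difference of 1.90 ± 0.47 SE (adjusted p = 0.0561) became 2.49 ± 0.47 SE without it (adjusted p = 0.0035). Usp18 read 5.32, 5.36 and 8.20 against 8.07, 9.44 and 8.86, so that its groups overlapped only through sham replicate 3. Its difference was 2.50 ± 0.84 SE (adjusted p = 0.202) with that array and 3.45 ± 0.86 SE (adjusted p = 0.0321) without it.

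Oasl2 behaved similarly, with 5.00, 4.70 and 7.09 against 7.37, 9.82 and 6.82, and was not called with (2.41 ± 0.90 SE, adjusted p = 0.276) or without the array (3.15 ± 0.97 SE, adjusted p = 0.0985). Irf1, a transcription factor of antiviral and interferon-gamma responses, read 8.60, 8.26 and 9.85 against 9.71, 11.24 and 9.93. It was not called with all arrays (1.39 ± 0.43 SE, adjusted p = 0.16) and was called without sham replicate 3 (1.86 ± 0.45 SE, adjusted p = 0.0249). Ifit2, an inhibitor of viral translation, differed by 2.81 ± 0.74 SE without that array (adjusted p = 0.0443), Ifitm3 by 2.77 ± 0.69 SE (adjusted p = 0.0325) and Trim25 by 1.46 ± 0.31 SE (adjusted p = 0.00927).

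The array sets also divided this comparison. Within the dim arrays (2 MCAO and 2 sham) the median over members was 1.30 and 34 of 35 folds were above 0, with 9 members called, against 4.01% of all genes higher. Within the bright arrays (1 against 1, MCAO replicate 3 and sham replicate 3) the median was 0.08 and 18 of 35 folds were above 0. Leaving out MCAO replicate 3 gave 3 called members, and leaving out LPS replicate 5, which enters the shared variance, gave 2. The shares of all genes called in these fits are not given here. Sham replicate 3 is both the bright array of its group and the one with high oligodendrocyte precursor markers, and the part of either in its antiviral levels was not tested.

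At 7 days 0 of 35 members were called, against 0.0254% of all genes called higher, and 8 had an unadjusted p under 0.05, all higher, against 2.24% of all genes higher. The small differences were nevertheless regular. The log2 fold was above 0 in 33 members with a median of 0.58 (all genes -0.01), and in 22 members (62.9%) the 3 MCAO arrays lay above the 3 sham arrays, against 9.65% of all genes. All arrays of this day were dim, and the mean over 36 members was 7.51, 7.62 and 7.55 after MCAO and 6.77, 6.80 and 6.93 after sham surgery. The fit on the 6 arrays of this day alone, which uses only their own spread, called 14 members, against 1.29% of all genes higher, and array weights called 4, against 2.33%. Oligodendrocyte precursor markers averaged 8.76 to 9.02 after MCAO and 7.55 to 7.81 after sham surgery at this day, and their part in the antiviral differences was not tested.

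Oasl2 read 4.91, 4.52 and 4.95 after sham surgery and 6.97, 6.88 and 7.01 after MCAO, a difference of 2.16 ± 0.90 SE. Usp18 read 5.32, 5.32 and 6.41 against 7.61, 7.52 and 7.41, a difference of 1.83 ± 0.84 SE. Ifi202b read 4.32, 4.46 and 4.17 against 5.93, 7.60 and 6.13, a difference of 2.24 ± 1.03 SE. None of these groups overlapped, and the adjusted p was at or near 1 for each. Irf1 had the smallest adjusted p of the members (0.372), with 8.63, 8.72 and 8.89 against 9.77, 10.62 and 10.49 and a difference of 1.55 ± 0.43 SE. Irf9 followed at 0.97 ± 0.30 SE (adjusted p = 0.623).

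**Figure D3:**
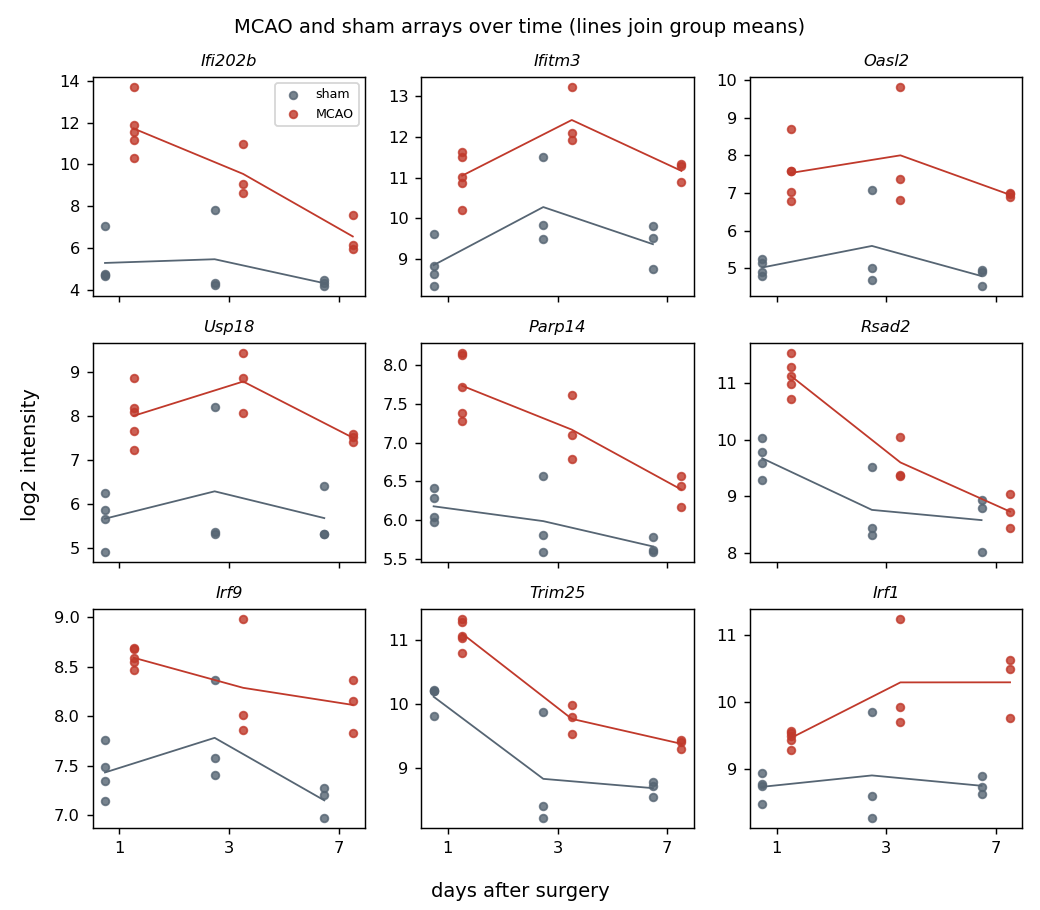
Log2 intensity of 9 members on each sham (grey) and MCAO (red) array at 1, 3 and 7 days after surgery, with lines through the group means. MCAO arrays lie above the sham arrays of 1 day in all 9 panels, the single high grey point at 3 days is sham replicate 3, and Rsad2 has MCAO and sham arrays overlapping at 7 days.

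The change of the stroke response with time was tested as an interaction. Of 35 members 0 were called for 3 days against 1 day (0.00636% of all genes were called in either direction) and 0 for 7 days against 1 day (0.356%), with 1 member each at an unadjusted p under 0.05, against 5.99% and 8.6% of all genes. Ifi202b had the largest difference at 7 days, at -4.20 ± 1.34 SE, a smaller response than at 1 day (adjusted p = 0.232). The point estimate was largest at 1 day for 19 members, at 3 days for 13 and at 7 days for 3, and 30 members were above 0 at all 3 times. Without 3-day sham replicate 3 the order turned, with 9 members largest at 1 day, 25 at 3 days and 1 at 7 days, and 31 above 0 at all 3 times, while 0 were still called for 3 days against 1 day. These orders were not tested. Irf1, for example, had log2 folds of 0.73, 1.39 (1.86 without that array) and 1.55 at 1, 3 and 7 days, and Rsad2 had 1.46, 0.84 (1.22 without it) and 0.15. Their differences between 7 and 1 day were 0.82 (adjusted p = 0.841) and -1.31 (adjusted p = 0.695).

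After LPS 17 of 35 members rose at 1 day (48.6%), against 2.37% of all genes called higher, and 0 fell, against 0.744% of all genes. The log2 fold was above 0 in 34 members with a median of 1.24 (all genes 0.07), and 29 members had an unadjusted p under 0.05, all higher, against 10.2% of all genes higher. Only Irf9 and Trim25 had all LPS arrays above all saline arrays, 2 members (5.71%) against 1.88% of all genes. Without saline replicate 3, 23 members rose (65.7%), against 1.78% of all genes, the median was 1.50, and 23 (65.7%) did not overlap, against 2.68%. This array too was picked for its high levels of the members, which raises their folds when it is left out. Of the 17 calls 16 remained without that array, Stat2 was lost (adjusted p = 0.0545), and Ddx58, Ifi202b, Ifit1, Ifit2, Irf1, Irf7 and Trim30a were gained.

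By role, 10 of 18 effectors tested rose, with a median of 1.61, and 13 rose without saline replicate 3, with a median of 1.99. Of the regulators, 3 of 6 rose (Irf9, Stat2 and Usp18) and 4 without it, Irf1 and Irf7 in place of Stat2. Of the sensors Ifih1 rose, and Ddx58 joined it without the array. Of the 7 PARP and TRIM genes Parp14, Trim21 and Trim25 rose, and Trim30a joined them.

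Oasl2 had the largest rise. It read 11.04, 9.83, 8.73, 9.06 and 8.75 on the LPS arrays and 4.46, 4.46, 9.20 and 4.52 on the saline arrays. Saline replicate 3 lay above 3 of the 5 LPS arrays, and the other 3 saline arrays lay more than 4 log2 units below the lowest. The rise was 3.82 ± 0.74 SE (adjusted p = 0.00277) and 5.00 ± 0.56 SE, or 32.0-fold, without that array. Usp18 read 10.77, 9.84, 8.23, 7.65 and 7.82 against 5.98, 4.17, 8.58 and 5.36, a rise of 2.84 ± 0.69 SE (adjusted p = 0.0192) that became 3.69 ± 0.64 SE. Ifitm3 read 12.45, 12.24, 12.42, 10.92 and 9.85 against 8.02, 8.80, 10.49 and 7.62, a rise of 2.84 ± 0.54 SE (adjusted p = 0.00213) that became 3.43 ± 0.52 SE. In both genes the groups overlapped only through saline replicate 3.

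Parp14 spanned a wide range after LPS, 10.74, 8.01, 7.11, 7.06 and 8.93, against 5.46, 4.81, 7.62 and 5.59 after saline. The rise was 2.50 ± 0.52 SE (adjusted p = 0.00598). A dimmer probe set of Parp14 differed by 0.44 after LPS, near the array's floor with a mean of 4.76. Xaf1, a pro-apoptotic interferon-induced gene, read 9.02, 8.04, 9.72, 8.49 and 8.69 against 5.39, 6.32, 8.08 and 7.17. It rose by 2.05 ± 0.35 SE (adjusted p = 0.000909), and its saline replicate 3 only just passed the lowest LPS array.

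Ifih1 read 10.21, 8.33, 8.48, 7.95 and 7.37 against 6.38, 5.52, 8.20 and 5.95 (1.96 ± 0.55 SE, adjusted p = 0.0482). Ifit3, a partner of Ifit1 in binding viral RNA, read 10.44, 7.94, 8.36, 8.19 and 9.97 against 6.98, 6.66, 8.18 and 6.59 (1.88 ± 0.49 SE, adjusted p = 0.0297). Ifi35, an interferon-induced leucine zipper protein, read 11.61, 10.08, 10.32, 9.97 and 8.72 against 7.55, 8.76, 9.67 and 7.36 (1.81 ± 0.43 SE, adjusted p = 0.0178). In each of the 3, LPS replicate 1 was the highest array and saline replicate 3 was above at least 1 LPS array. Irf9, whose groups did not overlap, read 9.65, 9.50, 9.44, 8.56 and 9.45 against 7.78, 7.25, 8.34 and 7.41 and had the smallest adjusted p of the set (1.63 ± 0.25 SE, adjusted p = 0.000174).

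The other 8 members that rose were Rsad2 (1.67), Trim25 (1.58), Bst2 (1.58), the receptor-transporting protein Rtp4 (1.24), Ifi27 (1.18), the antiviral GTPase Mx1 (1.03), Stat2 (0.91) and the antibody receptor Trim21 (0.79), as log2 folds. When single arrays were left out, the LPS calls of Rsad2 and Ifih1 held in 8 of 30 fits and that of Stat2 in 4. Those of Oasl2, Ifi27, Ifitm3, Xaf1, Irf9, Parp14 and Trim25 held in all 30, and the rest in 25 to 27. Ifi202b was not called after LPS with all arrays. It read 9.64, 6.95, 7.06, 6.94 and 6.25 against 4.46, 4.32, 8.21 and 4.09, a difference of 2.10 ± 0.85 SE (adjusted p = 0.199). Without saline replicate 3 the difference was 3.08 ± 0.80 SE and was called (adjusted p = 0.0387). Trim30a differed 4.01-fold (adjusted p = 0.0769), with 10.76, 7.13, 6.11, 7.48 and 7.93 against 5.52, 4.81, 7.51 and 5.67. Ifit2 differed by 1.78 ± 0.59 SE (adjusted p = 0.102), with 10.21, 8.04, 7.40, 6.60 and 8.95 against 6.36, 6.38, 7.93 and 5.17. Both were called without saline replicate 3 (2.55, adjusted p = 0.0265, and 2.27, adjusted p = 0.042).

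Members that moved little with all arrays were Adar (-0.23), Zbp1 (0.32) and Irf8 (0.47), none of which was called with or without saline replicate 3. Without that array their log2 folds were -0.13, 0.39 and 0.90, so the small value of Irf8 rested on it. Adar, the RNA-editing enzyme, has 3 probe sets on the array that differed after LPS. The brightest (mean 9.88) differed by -0.23, the second (7.63) by -0.22 and the dimmest (6.37) by 1.10, so that the value above is of 1 probe set and not of all transcripts of the gene.

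**Figure D4:**
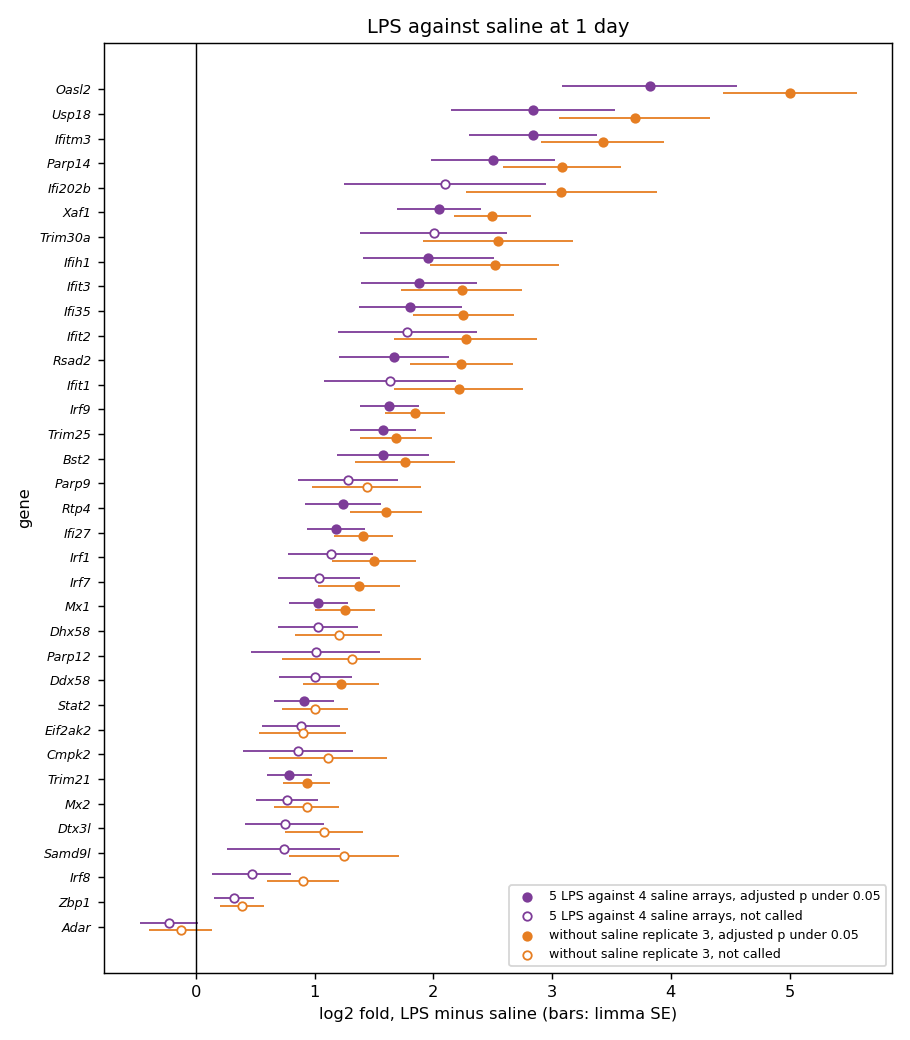
Log2 fold of LPS over saline at 1 day with the limma SE for 35 members, with all arrays (purple) and without saline replicate 3 (orange), filled where the adjusted p was under 0.05. Filled points number 17 and 23, and all folds but that of Adar lie above 0 in both fits.

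The LPS response was uneven between arrays. LPS replicate 1 exceeded the average of LPS replicates 2 to 5 by more than 2-fold in 21 members (60.0%), against 5.93% of all genes, and leaving it out left 7 members called, against 1.55% of all genes higher. Leaving out saline replicate 1, 2 or 4 left 11, 10 and 7, for which the shares of all genes are not given here. Without both saline replicate 3 and LPS replicate 5 there were 26, against 2.23% of all genes higher. Within the bright arrays (LPS replicates 1 to 3 and saline replicates 1 and 2) the median was 1.81 and 35 of 35 folds were above 0, with 18 called, against 1.46% of all genes higher. Within the dim arrays (LPS replicates 4 and 5 and saline replicates 3 and 4) the median was 0.59 and 29 were above 0, with 0 called, against 0.61% of all genes higher. Saline replicate 3 is among the dim arrays, and the part of the array set in its levels was not tested. With the set as a covariate 18 members were called, against 3.31%. The fit on the LPS and saline arrays alone called 1, against 0.388%. Of 13 microglial markers tested 0 were called after LPS, their sum ran from 1173 to 2099 against 764 to 2138 after saline, and of the other cell markers the pericyte gene Rgs5 alone was called (1.98 ± 0.41 SE, adjusted p = 0.00603).

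Stroke and LPS at 1 day shared 7 called members, 87.5% of the 8 called after MCAO and 41.2% of the 17 called after LPS. They were Ifitm3, Irf9, Oasl2, Parp14, Rsad2, Trim25 and Usp18, and the member called after stroke alone was Ifi202b. Without saline replicate 3 all 8 were shared. The same overlap over all genes is not given here, so these shares have no background beside them. The comparisons use different control arrays, but the model pools their variance. The log2 fold was larger after LPS than after MCAO in 31 of 35 members, and in 33 without saline replicate 3. The 4 exceptions with all arrays were Ifi202b (6.43 after MCAO and 2.10 after LPS), Samd9l (1.20 and 0.74), Dtx3l (0.91 and 0.75) and Adar (0.29 and -0.23). All genes leaned towards LPS too, the MCAO response being larger in 37.1% of them with all arrays. The median of the MCAO minus the LPS response was -0.12 over all genes and -0.54 over members.

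The difference between the responses was tested directly, and 0 of 35 members were called, against 1.39% of all genes in either direction. At an unadjusted p under 0.05 there were 4 of 35, near the 12.8% of all genes. The largest difference was that of Ifi202b, 4.34 ± 1.20 SE higher after MCAO (adjusted p = 0.068), and it was 3.36 without saline replicate 3. Xaf1 (-1.33 ± 0.50 SE, adjusted p = 0.208), Ifi27 (-0.86 ± 0.35 SE, adjusted p = 0.259) and Trim21 (-0.62 ± 0.27 SE, adjusted p = 0.302) leaned towards LPS. Array weights called 3 members in this contrast, against 13.5% of all genes, and the bright arrays alone called 1, against 0.547%.

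**Figure D5:**
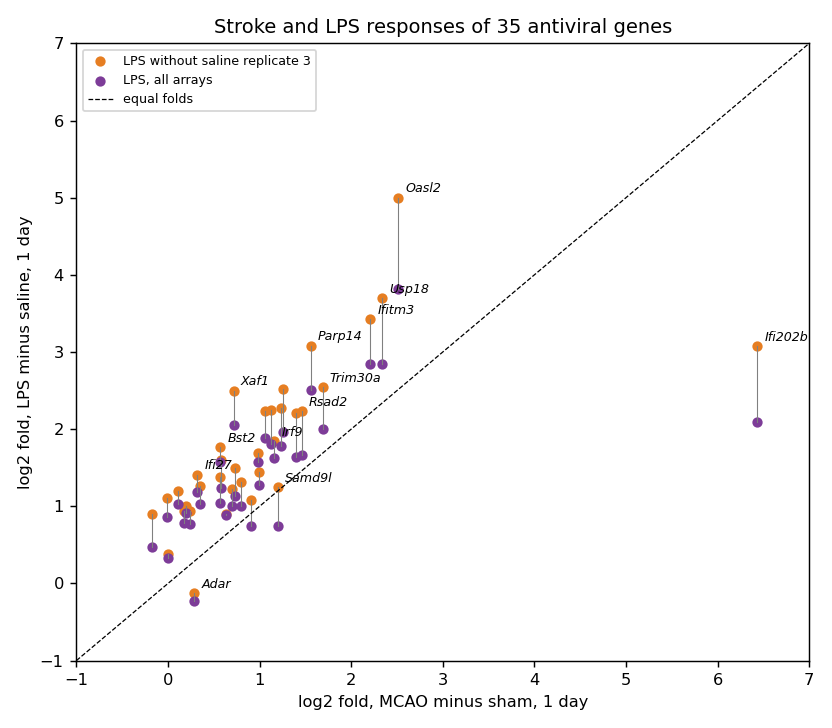
Log2 fold after LPS (vertical) against log2 fold after MCAO (horizontal) at 1 day for 35 members, with all arrays (purple) and without saline replicate 3 (orange), grey lines joining the values of a gene and the dashed line marking equal folds. Most members lie above the line and Ifi202b lies far below it, although the difference of responses was called for 0 members.

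The rest of the pathway was read from a list of 84 genes, of which 73 were tested. After MCAO at 1 day 8 rose and 2 fell, against 6.49% and 6.17% of all genes. At 3 days 0 rose and 1 fell, against 0.61% and 0.0636%, and at 7 days 0 were called. After LPS 13 rose, against 2.37% of all genes, and 0 fell. Ube2l6 passed the filter only through LPS arrays (5.81, 5.43, 5.00 and 5.76). That gene was thus tested because it was high after LPS, and a call of it there adds no support of its own. Without saline replicate 3 the LPS count was 12, against 1.78%, with Tdrd7 and Trim56 lost and Oas1b gained. Of the interferon genes 5 of 11 passed the filter and 0 were called in any comparison. Ifnb1 had group means of 4.65 to 5.02, close to the filter. The receptor genes Ifnar1 (9.04 to 10.21 as group means) and Ifnar2 (8.88 to 9.87) and the kinase genes Jak1 (9.88 to 10.54) and Tyk2 (7.75 to 8.83) were well above it in every group, and none was called.

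Of 13 upstream sensing genes, Tlr4, the LPS receptor, rose 5.00-fold after MCAO at 1 day. It read 6.07, 6.27, 6.41 and 6.19 after sham surgery and 8.53, 8.70, 8.42, 8.44 and 8.69 after MCAO (2.32 ± 0.32 SE, adjusted p = 1.51e-05). After LPS it differed by 0.85 and was not called (adjusted p = 0.165). Myd88, its adaptor, rose after MCAO (1.75 ± 0.23 SE, adjusted p = 9.29e-06) and after LPS (1.11 ± 0.23 SE, adjusted p = 0.00603). Tlr3, an endosomal sensor of viral RNA that was bright on these arrays, fell by 0.84 on the log2 scale at 1 day after MCAO (adjusted p = 0.00296), from 12.32, 12.10, 11.70 and 12.26 to 10.96, 11.69, 11.17, 11.02 and 11.43. It fell by 0.97 at 3 days (adjusted p = 0.0427, and 0.0531 without 3-day sham replicate 3) and was not called at 7 days (-0.46) or after LPS (0.17). Its MCAO arrays were below all sham arrays at all 3 times.

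Of 8 inhibitors, Socs3 rose after MCAO at 1 day (2.39 ± 0.43 SE, adjusted p = 0.000322) and Pias1 fell by 0.82 (adjusted p = 0.00479). None was called at 3 or 7 days or after LPS with all arrays, and Socs3 was called at 3 days without sham replicate 3 (2.12 ± 0.55 SE, adjusted p = 0.0408). In the test of the MCAO against the LPS response at 1 day, Pias1 (-1.26 ± 0.28 SE, adjusted p = 0.0199) and Ifi204 (1.77, adjusted p = 0.0303) were the 2 pathway genes called. Without saline replicate 3 Pias1 was still called (adjusted p = 0.0332) and Ifi204 was not (adjusted p = 0.0695). Ifi204 had passed the filter only through MCAO arrays, so its calls add no support of their own. Of 39 other interferon-stimulated genes tested 5, Ifi204 among them, rose after MCAO at 1 day, against 6.49% of all genes. After LPS 12 rose, against 2.37% of all genes. At 3 and 7 days 0 were called, where 0.61% and 0.0254% of all genes were called higher. Cxcl10, a chemokine that draws T cells, rose by 3.90 ± 0.78 SE after MCAO (adjusted p = 0.00108) and by 3.49 ± 0.78 SE after LPS (adjusted p = 0.0104). On the saline arrays it read 6.11, 6.43, 10.36 and 6.48, and saline replicate 3 lay above 1 of the 5 LPS arrays (13.89, 10.39, 10.60, 8.72 and 10.58). Without that array the rise after LPS was 4.50 ± 0.71 SE. Ly6e (2.38), Lgals9 (2.30) and Oas1a (1.96) were the next largest after LPS with all arrays, and without saline replicate 3 they rose by 2.69, 2.55 and 2.40. Shisa5 (0.99) and Trim56 (0.81) were called beside Cxcl10 and Ifi204 after MCAO, as was Pml (0.46).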

How the data were processed

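The authors deposited 1 intensity per probe set and array on the linear scale, made with RMA per the submitters' processing notes, whose version is not given in the sources used here. Values were whole numbers from 9 to 35553, and log2 was taken here. Of 45037 probe sets 34945 carried 1 gene symbol, which gave 18193 genes with the brightest probe set each. Genes at log2 5 on at least 3 arrays were kept (15726). Arrays have no read depth, so their number limits the precision. limma 3.58.1 in R 4.3.3 fitted 1 model over 8 groups (22 residual and 4.55 prior degrees of freedom), 2-sided, and was tested on simulated data. Arrays are labelled as biological replicates, but no label ties them to separate mice. The p-values then reflect only the spread between these samples, which may be technical.

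The description numbers were tried as pairs of 1-day surgery arrays (correlations of 0.234, 0.191, 0.5 and 0.164 over all genes), and pairing was not established. Members and lists were chosen with earlier results of these data known. Named members were up to 8 called with the largest fold and 3 not called per comparison. Named other pathway genes were fixed core genes and up to 4 called per list, and a few more were named after their values were seen. Alternatives were other scalings, filters, probe sets, variance models, sample sets, blocks and thresholds, and each array left out. Array sets, and pairs of arrays left out together, were chosen after seeing the data.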

Additional observations from a re-analysis of the deposited data

Results flagged for a closer look

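Single arrays far from the rest of their group, by the gap to the nearest array as a share of the group's range, occurred in 9 of 140 groups of 4 or 5 arrays. Chance flags about 1 in 20. Saline replicate 3 was the high array in 5 of them, with log2 intensities of 7.03 for Ifit1, 9.20 for Oasl2, 8.21 for Ifi202b, 7.89 for Samd9l and 7.46 for Irf7. Ifi202b was also high on 1-day sham replicate 3 (7.04) and on LPS replicate 1 (9.64). Trim25 was low on 1-day sham replicate 4 (9.82), and Irf9 was low on LPS replicate 4 (8.56). The cause was not tested in any of these.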

How the results depend on the processing

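Counts of called members are compared with 8, 0, 0 and 17 (MCAO at 1, 3 and 7 days, and LPS) and with 0 for each difference of responses. The share of all genes called is not given for every fit, and a count may move with that share. The direction of all called members held under every alternative run. Array weights gave 25, 19, 4 and 27, with 3 members for MCAO against LPS and 1 each for 3 and 7 days against 1 day. Fitting the compared groups alone gave 25 at 1 day, 14 at 7 days, 1 after LPS and 5 for 7 days against 1 day. Title numbers as replicate block gave 4 at 1 day and 11 after LPS, and pairs by title number correlated at -0.396 to 0.425. Description numbers as replicate block gave 3 at 1 day and 13 after LPS. Quantile normalisation also gave 13 after LPS. An adjusted p under 0.01 gave 3 at 1 day and 7 after LPS. At 3 days quantile normalisation, median centring, a filter of log2 6, the mean of probe sets and the array set as covariate gave 1 each. Dim arrays alone gave 9 at 3 days and 0 after LPS, and bright arrays alone 12 at 1 day and 1 for MCAO against LPS. Both control arrays out gave 9 at 3 days. Saline 3 and LPS 5 out gave 12 at 1 day, 3 at 3 days, 26 after LPS and 1 for MCAO against LPS. Leaving out each array gave 4 to 14, 0 to 7, 0 to 0 and 7 to 23, with 0 to 1 for MCAO against LPS and 0 to 0 for both time differences. The causes of these changes were not tested. Levels near log2 5 lie close to the array's floor, so folds of genes such as Ifi202b, Oasl2 and Mx1 against their controls may be understated.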
